A study of Ovis aries with 3 samples.

Results

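Genes of the immunoproteasome and of class I antigen presentation, PSMB8, PSMB9, PSMB10, B2M and TAP1, were followed across cell classes and diets in the rumen epithelium of Hu sheep lambs. They were taken by symbol, and all 5 were found once each among the 26247 genes listed in every library. The identifiers in the files are ENSOARG00000007622 for PSMB8, ENSOARG00000007866 for PSMB9, ENSOARG00000003243 for PSMB10, ENSOARG00000003782 for B2M and ENSOARG00000007738 for TAP1. The set was selected on the measured levels of these genes by diet and cell class in the same libraries, so the values below are a description and were not tested.

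Cells cut their own proteins into peptides in the proteasome, and show some of these peptides at the surface on class I molecules, where cytotoxic T cells read them. In many cells the catalytic beta subunits of the standard proteasome can be replaced by immune forms: PSMB8 takes the place of PSMB5, PSMB9 that of PSMB6, and PSMB10 that of PSMB7. TAP1 is part of the pump that carries peptides into the endoplasmic reticulum, and B2M is the light chain that every classical class I molecule needs. Interferon gamma is the best known inducer of these genes, and cells of blood origin carry them at rest. Keratinocytes are epithelial cells that carry them at lower levels. In the stratified epithelium of the rumen they divide in the deep layers and differentiate towards the lumen.

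The 3 libraries came from lambs at 42 days of age that were fed milk only, milk with alfalfa hay, or milk with a concentrate starter, and are called the milk-only, hay and concentrate libraries here. Each diet has 1 library, and the labels do not say how many lambs it holds. A difference between diets, lambs and preparations therefore cannot be told apart, and there is no replicate check on any difference. The title of the series places the concentrate diet beside parakeratosis and blocked keratinocyte differentiation.

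Transcripts were counted as unique molecular identifiers (UMIs), summed over the cells of a class in a library and given per 1000000 UMIs of that sum (CPM). After filtering, 15772 cells were kept (3850 milk-only, 7031 hay, 4891 concentrate), with median depths of 11021, 5887 and 8050 UMIs. The libraries shared 15 to 28 cell barcodes in pairs, out of 7032 to 9543. Cells fell into 16 clusters, which are numbered c0 to c15. KRT15-high keratinocytes (KRT15 is a keratin of the basal layer) numbered 2209, 5157 and 3487 in the milk-only, hay and concentrate libraries. Dividing keratinocytes numbered 355, 1468 and 989, and KRTDAP-positive keratinocytes, named for a gene of differentiating keratinocytes, 824, 91 and 92. T or NK-like cells numbered 333, 8 and 44, and macrophage or dendritic-like cells 112, 31 and 50. Endothelial-like (64) and fibroblast-like (59) cells were seen almost only in the concentrate library. A class with under 20 cells in a library is not used there. Intervals are exact 95% intervals and cover counting error only, since cells of 1 library are not replicates.

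All 5 genes were highest in immune cells. PSMB8, the immune form of the chymotrypsin-like subunit, stood at 944 CPM in T or NK-like cells and 1054 CPM in macrophage or dendritic-like cells of the milk-only library. In the keratinocytes of that library it stood at 74.4 CPM in KRT15-high, 106 CPM in dividing and 66.7 CPM in KRTDAP-positive cells. PSMB9, another immune catalytic subunit, was 15.7-fold higher in T or NK-like than in KRT15-high cells of the milk-only library (14.7 to 16.9) and 30.7-fold higher in macrophage or dendritic-like cells (28.8 to 32.7). The same 2 ratios were 10.4 and 7.11 for B2M, 4.51 and 5.35 for PSMB10, and 7.15 and 6.37 for TAP1. Thus all 5 genes were at least 1.5-fold higher in each of these immune classes than in KRT15-high cells, where 30.6% of all measured genes were higher in T or NK-like cells and 34.0% in macrophage or dendritic-like cells. A gene counted as measured with at least 10 CPM in 1 of the 2 groups and 20 UMIs over both. In the hay library all 5 were higher in macrophage or dendritic-like cells, where 53.8% of genes were. In the concentrate library all 5 were higher in T or NK-like cells, where 40.1% were, and the 4 measured members in macrophage or dendritic-like cells, where 47.9% were. There the ratio to KRT15-high cells was 75.2 for PSMB8 and 138 for PSMB9 in T or NK-like cells.

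**Figure D1:**
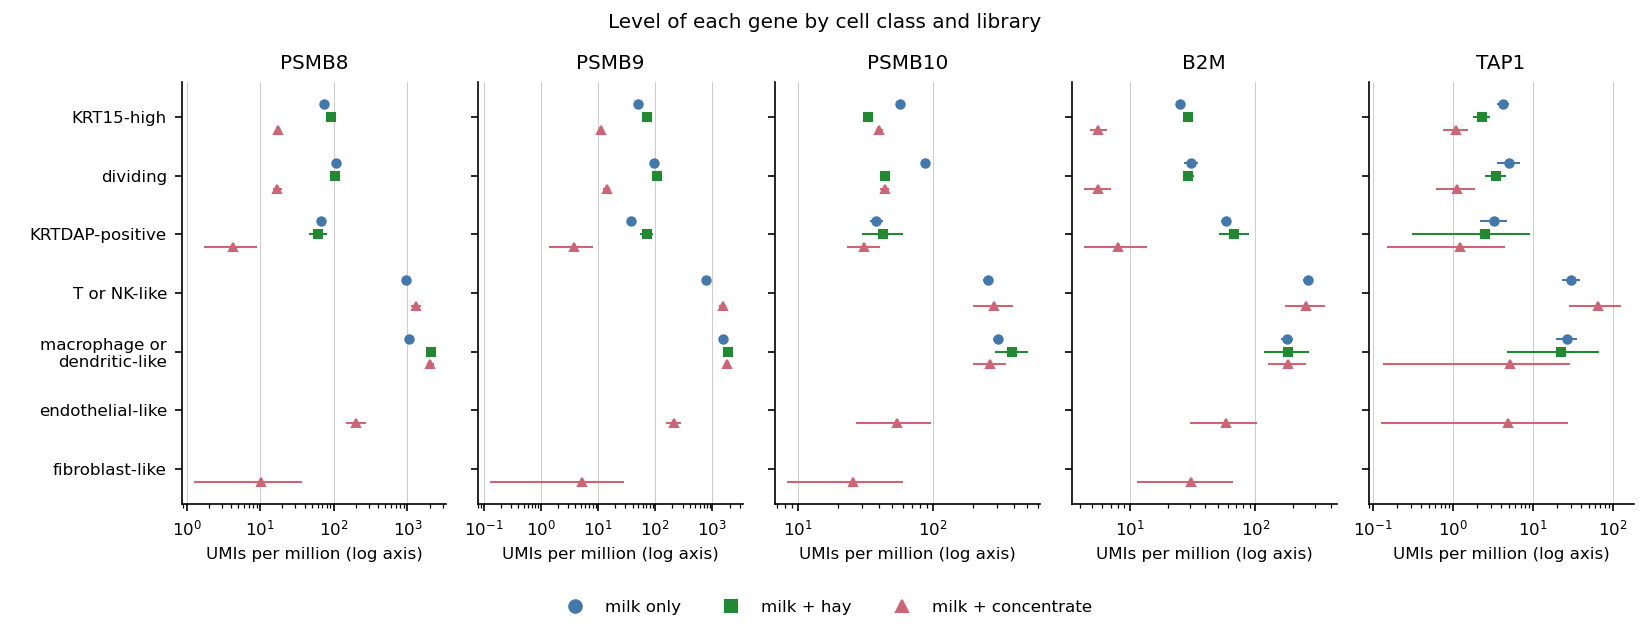
Level of each gene, in CPM on a log axis, in each cell class (rows) and library (colour and shape), with exact 95% Poisson intervals; groups with no UMI or under 20 cells are not drawn. In the keratinocyte rows the concentrate library sits to the left for PSMB8, PSMB9 and B2M, for example at 17.6 against 74.4 and 90.7 for PSMB8 in KRT15-high cells, and in the immune rows it does not.

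The order of the groups differed between genes. For PSMB8 and PSMB9, macrophage or dendritic-like cells of the hay and concentrate libraries came first (2065 and 2055 CPM for PSMB8), and their intervals overlapped. Endothelial-like cells lay between the immune cells and the keratinocytes, at 201 CPM for PSMB8 (144 to 273) and 211 CPM for PSMB9 (153 to 284). In these cells 3 of 4 measured members (PSMB8, PSMB9 and B2M) were higher than in KRT15-high cells of the same library, where 52.2% of genes were. KRTDAP-positive cells of the concentrate library came last, at 4.33 CPM for PSMB8 (1.74 to 8.92) and 3.71 CPM for PSMB9 (1.36 to 8.08). B2M had another order. T or NK-like cells came first with 264 CPM in the milk-only and 252 CPM in the concentrate library, and the 3 macrophage or dendritic-like groups lay together between 180 and 182 CPM. Fibroblast-like cells held only 2 UMIs of PSMB8, 1 of PSMB9, 5 of PSMB10, 6 of B2M and 0 of TAP1. For TAP1 the interval reaches 18.9 CPM. Of the 4 measured members there, B2M was higher than in KRT15-high cells, where 50.2% of genes were, and the 3 subunits lower, where 18.1% were, with intervals of the ratio that include equality for each of the 3.

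Within the keratinocytes, the genes did not share 1 pattern from KRT15-high to dividing and KRTDAP-positive cells. In the milk-only library PSMB9 was 1.91-fold higher in dividing than in KRT15-high cells (1.74 to 2.08) and PSMB10 was 1.53-fold higher (1.4 to 1.67), which makes 2 of 4 measured members where 15% of all measured genes were higher. In the hay library PSMB9 alone passed 1.5-fold, at 1.53 (1.43 to 1.64), where 10.9% of genes did. In the concentrate library 0 of the 3 measured members did, where 12.2% of genes did, and PSMB9 stood at 1.26 (1.05 to 1.52). B2M went with KRTDAP-positive cells instead. It was 2.32-fold higher there than in KRT15-high cells of the milk-only library (2.07 to 2.60) and 2.36-fold higher in the hay library (1.76 to 3.11), the 1 member of 4 called in each, where 17.4% and 23.1% of genes were higher. In the concentrate library PSMB8 and PSMB9 were 4.07-fold and 2.99-fold lower in KRTDAP-positive cells, 2 of 3 measured members where 35.1% of genes were lower, from 7 and 6 UMIs.

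The comparison between diets was made first in KRT15-high keratinocytes, the largest class. PSMB8 stood at 74.4 CPM in the milk-only library (71.4 to 77.6), 90.7 CPM in the hay library (87.4 to 94.2) and 17.6 CPM in the concentrate library (16.2 to 19.2). PSMB9 stood at 49.5, 71.1 and 11.1 CPM, and B2M at 25.2, 28.8 and 5.59 CPM, in the same order. For these 3 genes the concentrate library was the low one, and its interval lay apart from those of the other libraries. PSMB10 behaved differently: 57.3 CPM in the milk-only library, 33.4 CPM in the hay library and 40.1 CPM in the concentrate library, so that milk-only was the high one. TAP1 was sparse, with 128, 71 and 33 UMIs, or 4.22, 2.30 and 1.10 CPM, and lay under the minimum of 10 CPM in all keratinocytes.

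Against milk only, the concentrate library was 4.22-fold lower for PSMB8 (3.84 to 4.65), 4.46-fold lower for PSMB9 (3.95 to 5.03) and 4.52-fold lower for B2M (3.82 to 5.38). Against hay it was 5.15-fold lower for PSMB8 (4.69 to 5.66), 6.41-fold lower for PSMB9 (5.71 to 7.21) and 5.16-fold lower for B2M (4.37 to 6.13). So 3 of 4 measured members were at least 1.5-fold lower in concentrate than in milk only, where 14.5% of all measured genes were lower and 8.40% higher. The same 3 were lower than in hay, where 2.07% of genes were lower and 14.0% higher. These contrasts took part in the choice of the genes, so nothing is read from the counts. PSMB10 was 1.43-fold lower in concentrate than in milk only (1.33 to 1.54) and 1.2-fold higher than in hay (1.11 to 1.31). TAP1 was 3.83-fold lower in concentrate than in milk only (2.59 to 5.80) and 2.08-fold lower than in hay (1.36 to 3.25), from few UMIs.

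Ordered by their ratio of concentrate to hay, 1 of the 4294 measured genes lay below PSMB9, 3 lay below B2M and 4 lay below PSMB8. Against milk only the tail was longer, with 91 of 4631 genes below PSMB9, 90 below B2M and 101 below PSMB8. PSMB10 lay in the body of both distributions, with 60.2% of genes below it for concentrate against hay and 17.1% for concentrate against milk only. The 2 comparisons share the concentrate library. They also took part in the choice of the genes, so nothing is read from these ranks.

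**Figure D2:**
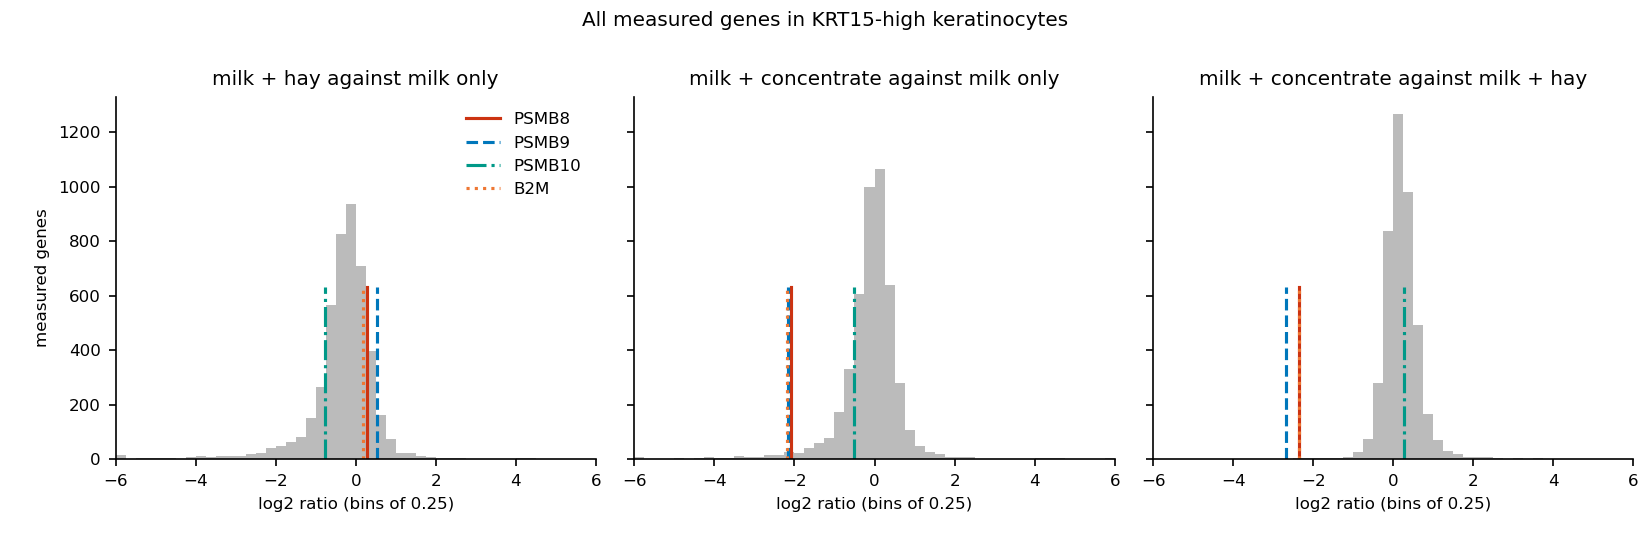
Number of measured genes (vertical axis) by log2 ratio between libraries in KRT15-high keratinocytes, in bins of 0.25 with values beyond the axis put in the end bins, and the ratios of 4 genes as vertical lines. PSMB8, PSMB9 and B2M lie near the lower end for concentrate against hay (log2 ratios of -2.36, -2.68 and -2.37), and PSMB10 lies in the body of the distribution.

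Hay against milk only gave smaller differences. PSMB9 was 1.44-fold higher in hay (1.35 to 1.54), PSMB8 1.22-fold (1.15 to 1.29) and B2M 1.14-fold (1.04 to 1.26), all under 1.5-fold. PSMB10 was 1.72-fold lower (1.59 to 1.86), the 1 member of 4 past the limit where 24.6% of measured genes were lower and 5.19% higher. This call rests on the scale. The median gene had a log2 ratio of -0.23 between hay and milk only, 0.18 between concentrate and hay, and -0.03 between concentrate and milk only. Relative to that median the log2 ratio of PSMB10 was -0.55, short of the limit, and that of PSMB9 was 0.75, past it. On that scale 15.4% of genes were lower and 11% higher in hay, and 4.57% were lower and 7.03% higher in concentrate than in hay; the log2 ratios of concentrate to hay were then -2.55 for PSMB8, -2.86 for PSMB9 and -2.55 for B2M.

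KRT15-high cells of the 3 libraries came from different clusters, so the genes were also read cluster by cluster. The milk-only cells were c4 and c6, the hay cells c0, c3 and c5 with 78 cells of c8, and the concentrate cells c1 (2272) and c8 (771) with 279 of c3, 86 of c0 and 62 of c5. Another 15 concentrate cells were in c4 and 2 in c6. PSMB8 ranged from 73.4 to 126 CPM over the milk-only and hay clusters. In the concentrate library it was 9.20 CPM in c1, 35.2 CPM in c3, 39.0 CPM in c8, 48.1 CPM in c0 and 57.0 CPM in c5. These 5 concentrate clusters, each with at least 20 cells, lay below the milk-only and hay clusters, although the interval of c5 (38.5 to 81.4) reached them, and c1 was the lowest. The 15 concentrate cells of c4 stood at 434 CPM (284 to 636), above all of these, from 26 of 59868 UMIs, and had no UMI of PTPRC. B2M stood at 4.60 CPM in c1 and 4.79 CPM in c8 but at 20.8 CPM in c0 and 20.9 CPM in c5, where milk-only c6 had 20.1 CPM. Cluster c1 held 65.2% of the concentrate cells of this class and 39.5% of their PSMB8 UMIs. Without it the log2 ratio of concentrate to milk only was -0.77 in place of -2.08 for PSMB8, -1.01 in place of -2.16 for PSMB9 and -1.55 in place of -2.18 for B2M.

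Clusters with at least 20 cells of each library allow hay and concentrate to be compared within a cluster. In c3 the concentrate cells were 3.57-fold lower for PSMB8, 5.54-fold lower for PSMB9 and 2.85-fold lower for B2M. In c8 the values were 2.79, 6.09 and 11.1. In c5 they were 1.99, 2.17 and 1.42, and in c0 1.53, 1.21 and 1.39, with intervals that reached past equality for B2M in both and for PSMB9 in c0. In these 4 clusters PSMB10 differed by less than 1.2-fold and each of its intervals included equality. Size varied with the cluster, and the direction was the same for the 3 genes in all 4.

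**Figure D3:**
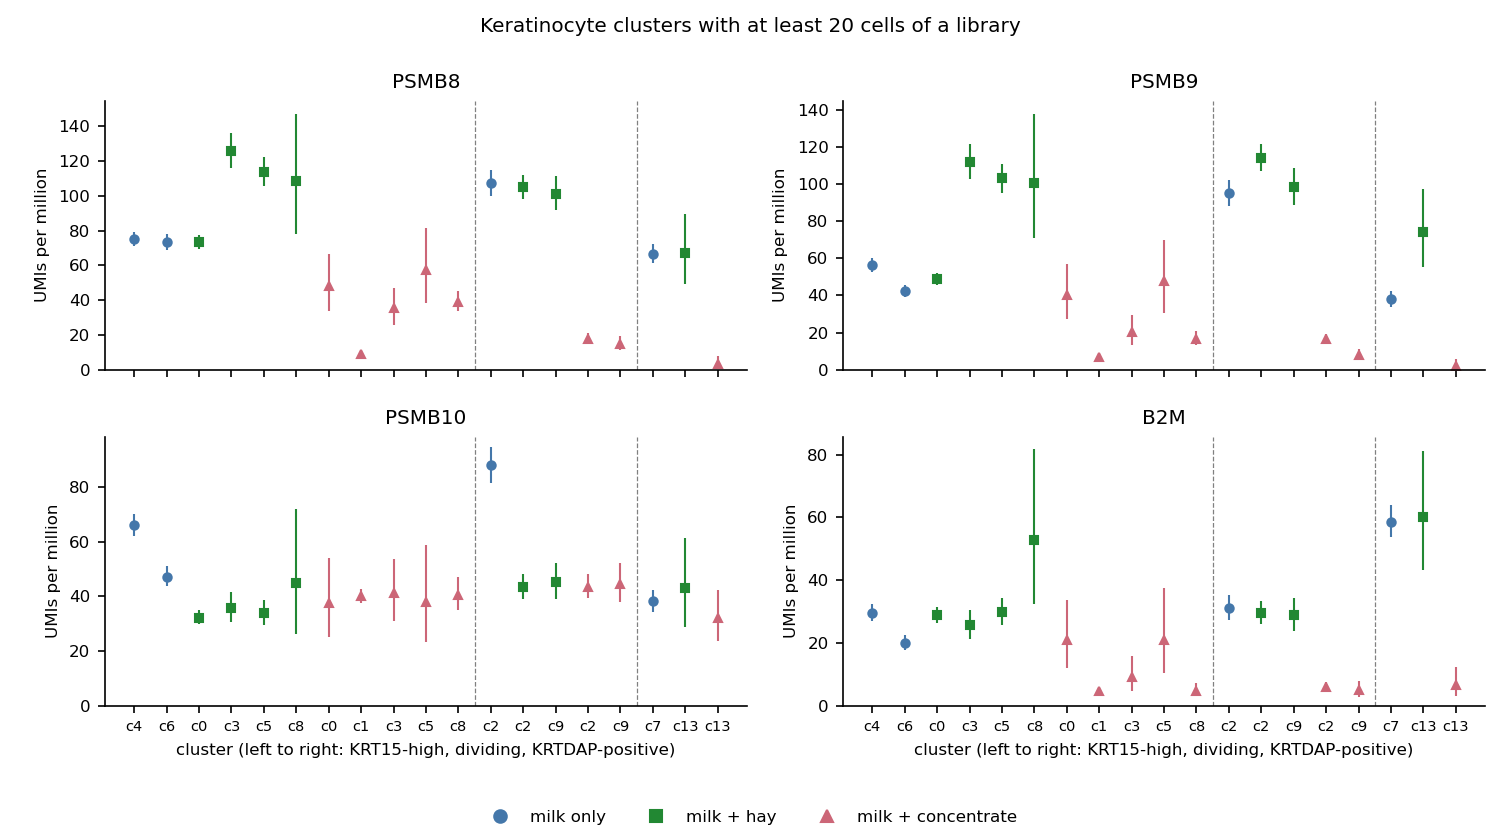
Level of 4 genes, in CPM, in each keratinocyte cluster with at least 20 cells of a library, with exact 95% Poisson intervals; dashed lines part KRT15-high, dividing and KRTDAP-positive clusters. The concentrate points (triangles) are lowest in c1 and c13 for PSMB8, at 9.20 and 3.33, whereas those of PSMB10 lie between 32.0 and 44.7 in every cluster.

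Markers of other cell types were counted in the same cells. In KRT15-high keratinocytes the 25 T or NK markers summed to 4.55, 1.29 and 2.21 CPM in the milk-only, hay and concentrate libraries, with none of them at 10 CPM, and the 24 macrophage or dendritic markers to 9.74, 2.65 and 3.68 CPM. PTPRC, which marks blood cells, stood in milk-only KRT15-high cells at 0.0573% of its level in T or NK-like cells. That share of the PSMB8 level in T or NK-like cells is 0.541 CPM, against 74.4 CPM measured. The figure holds for PSMB8 in KRT15-high cells alone. PTPRC was at 0.429 CPM in these cells and at 1.68 CPM in milk-only dividing cells. The part of RNA from immune cells in the keratinocyte levels was not tested. The 18 fibroblast markers moved with diet, at 262, 4.85 and 37.0 CPM, and 2 of the 18 reached 10 CPM in milk only. DCN, a matrix proteoglycan on that list, was at 152 CPM in c4 and 293 CPM in c6, whereas the collagen genes COL1A2 and COL3A1 were at 0 and at most 0.141 CPM there. The part of these markers in the result was not tested. In the concentrate library COL3A1 was at 3.01 CPM in the class and at 11.3 CPM in c8, where DCN was at 128 CPM, against 0.132 CPM (milk only) and 0.162 CPM (hay) in the class. Fibroblast-like cells had 11249 CPM of DCN and 27599 CPM of COL3A1. Both milk-only clusters carry DCN, so leaving out either does not remove it. Without c4 the log2 ratio of concentrate to milk only was -2.14 for PSMB8, -2.0 for PSMB9 and -1.87 for B2M, and without c6 it was -2.1 for PSMB8, -2.33 for PSMB9 and -2.42 for B2M.

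Single cells were compared after thinning each to 2000 UMIs, which left out 19 milk-only and 16 concentrate cells of the KRT15-high class. A UMI of PSMB8 was found in 12.1% of milk-only, 15.8% of hay and 3.54% of concentrate cells. Before thinning the shares were 41.7%, 34.1% and 10.2%. For PSMB9 the thinned shares were 8.17%, 11.9% and 1.64%, and for B2M 4.89%, 5.6% and 1.15%. For PSMB10 they were 10.0%, 5.99% and 7.17%. TAP1 was at 0.776%, 0.504% and 0.288%. PTPRC was found in 0.0913%, 0.0194% and 0% of the same cells, where 0 of 3471 allows up to 0.0864%, and in 74.8% of milk-only T or NK-like cells.

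UMIs of PSMB8 and PSMB9 tended to fall in the same cells. Among thinned KRT15-high cells of the concentrate library, PSMB8 was found in 22.8% of the 57 cells with a UMI of PSMB9 (12.7 to 35.8) and in 3.22% of the 3414 cells without one (2.66 to 3.87). In the milk-only library the shares were 36.3% and 10.0%, and in the hay library 26.2% and 14.4%. Split by PSMB5, the standard subunit, the shares of the concentrate library were 3.55% and 3.54%. Split by B2M the concentrate shares were 15% with and 3.41% without, and split by PSMB10 they were 10% and 3.04%. Split by PSMB5 the milk-only shares were 14% and 11.2%. So the few PSMB8 UMIs of the concentrate library were found more often in cells with a UMI of PSMB9, PSMB10 or B2M. The share with B2M there rests on 6 of 40 cells (5.71 to 29.8). In hay the shares were 17.6% with and 15.7% without B2M, and 19.7% with and 15.6% without PSMB10, with overlapping intervals. In milk only they were 25.2% and 11.5% for B2M, and 22.7% and 11% for PSMB10. The split pools clusters whose levels differ.

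Dividing keratinocytes, clusters c2 and c9, hold cells of all 3 libraries in c2 and so compare more closely like with like. PSMB8 stood at 106, 104 and 17.0 CPM in the milk-only, hay and concentrate libraries, PSMB9 at 94.2, 109 and 14.0 CPM, and B2M at 30.9, 29.3 and 5.54 CPM. Milk-only and hay lay close together and concentrate lay apart. The concentrate library was 6.25-fold lower than milk only for PSMB8 (5.37 to 7.29), 6.72-fold for PSMB9 (5.70 to 7.97) and 5.57-fold for B2M (4.25 to 7.37). Within c2 alone the same ratios were 6.02, 5.79 and 5.37. PSMB10 was at 87.7, 44.0 and 43.9 CPM, so that hay was 1.99-fold lower than milk only (1.78 to 2.23) and concentrate 2.0-fold lower (1.78 to 2.24). All 4 measured members were lower in concentrate than in milk only, where 14.2% of genes were; 3 were lower than in hay, where 2.44% were; and 1 was lower in hay than in milk only, where 25% were. Relative to the median gene the log2 ratio of PSMB10 for hay against milk only was -0.76, still past the limit, and 15.3% of genes were lower and 11.3% higher in that comparison. On the same scale 5.5% were lower and 5.76% higher in concentrate than in hay.

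KRTDAP-positive keratinocytes gave large ratios on few UMIs. PSMB8 stood at 66.7, 61.8 and 4.33 CPM (588, 49 and 7 UMIs), PSMB9 at 37.9, 71.9 and 3.71 CPM (334, 57 and 6 UMIs), and B2M at 58.6, 68.1 and 8.04 CPM (517, 54 and 13 UMIs). Against hay the concentrate cells were 14.3-fold lower for PSMB8 (6.43 to 37.4), 19.4-fold for PSMB9 (8.37 to 55.0) and 8.47-fold for B2M (4.56 to 16.9). PSMB10 was at 38.2, 42.9 and 30.9 CPM, with overlapping intervals. In this class 3 members were lower in concentrate than in milk only, where 18.1% of genes were, and the same 3 than in hay, where 15.6% were; PSMB9 was 1.90-fold higher in hay than in milk only, where 19.1% of genes were higher. The milk-only cells of this class are cluster c7, with a median of 3521 UMIs, and the hay and concentrate cells are mostly c13, with medians of 7326 and 15938 UMIs for the class. At a coarser clustering (resolution 0.3) the class held 1981 milk-only, 23 hay and 29 concentrate cells and the direction turned: the log2 ratio of concentrate to milk only was 1.12 for PSMB8 and 1.46 for PSMB9. With the class cut cell by cell from KRTDAP UMIs it was -3.71 and -2.54, so the values depend on which cells are called KRTDAP-positive.

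The standard subunits give a reference inside the same cells. PSMB5 and PSMB7, the partners of PSMB8 and PSMB10, stood within 1.5-fold between every pair of libraries in the 3 keratinocyte classes. In KRT15-high cells PSMB5 was at 260, 275 and 294 CPM and PSMB7 at 118, 124 and 135 CPM. PSMB8 made up 22.3% of the UMIs of PSMB8 and PSMB5 together in milk-only KRT15-high cells (21.5 to 23.1), 24.8% in hay (24.0 to 25.6) and 5.66% in concentrate (5.20 to 6.15). In dividing cells the shares were 22.8%, 25.4% and 4.62%, and in KRTDAP-positive cells 11.8%, 11.4% and 0.936%. The share of PSMB10 in PSMB10 and PSMB7 together was 32.8% in milk-only KRT15-high cells, 21.2% in hay and 23.0% in concentrate. In dividing cells it was 33.6%, 23.7% and 21.7%, and in KRTDAP-positive cells 17.8%, 18.2% and 13% with overlapping intervals. The share of PSMB8 was thus low in concentrate in all 3 classes, and that of PSMB10 was high in milk only in KRT15-high and dividing cells but not in KRTDAP-positive cells. Such a share also depends on how well each transcript is captured, so only its difference between groups can be read.

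In immune cells the shares of the immune forms were higher than in keratinocytes of the same library. PSMB8 made up 90.2% in milk-only and 92.1% in concentrate T or NK-like cells (87.1 to 95.6), and 89.0%, 93.2% and 93.2% in macrophage or dendritic-like cells (milk-only, hay and concentrate). PSMB10 made up 72.8% and 72.9% in T or NK-like cells. Endothelial-like cells of the concentrate library had 44.1% for PSMB8 (33.8 to 54.8) and fibroblast-like cells 3.03% (0.369 to 10.5). PSMB6, the partner of PSMB9, was not analysed here.

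**Figure D4:**
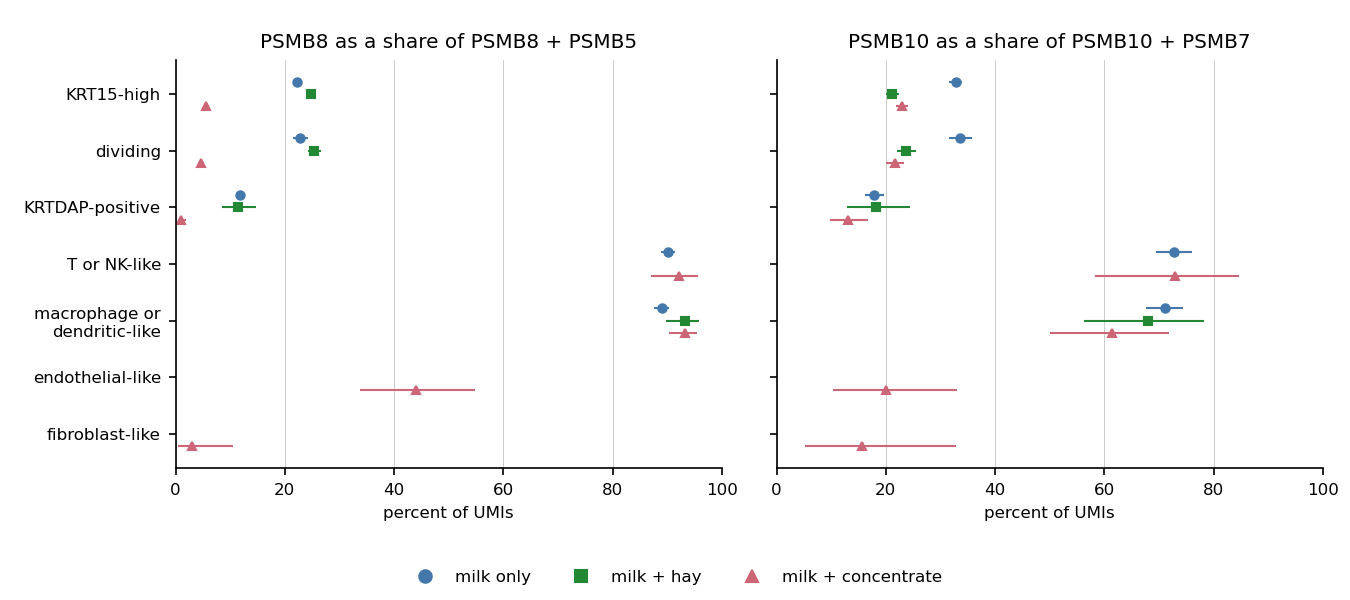
Immune subunit UMIs as a percent of immune plus standard subunit UMIs, for PSMB8 with PSMB5 and PSMB10 with PSMB7, by cell class (rows) and library, with exact 95% binomial intervals. The concentrate library has 5.66% against 22.3% and 24.8% for PSMB8 in KRT15-high cells, and for T or NK-like cells its interval includes the milk-only value.

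The levels in immune cells did not follow those in keratinocytes. In T or NK-like cells PSMB8 stood at 944 CPM in milk only and 1325 CPM in concentrate, a ratio of 1.40 (1.19 to 1.65), and PSMB9 at 778 and 1528 CPM, a ratio of 1.96 (1.68 to 2.29). PSMB10 had a ratio of 1.10 (0.759 to 1.55) and B2M of 0.956 (0.643 to 1.37). TAP1 was at 30.2 and 65.0 CPM, from 63 and 8 UMIs, a ratio of 2.15 whose interval (0.891 to 4.51) includes equality. PSMB9 and TAP1, 2 of 5 members, were thus called higher, where 27.5% of measured genes were. Scaled to the median of ratios, 21.9% of genes were higher and 23.4% lower in this class. In macrophage or dendritic-like cells PSMB8 was at 1054, 2065 and 2055 CPM, so that hay was 1.96-fold higher than milk only (1.72 to 2.23) and concentrate 1.95-fold higher (1.74 to 2.18), where 32.6% and 30.9% of genes were higher. PSMB9 was at 1517, 1884 and 1811 CPM and B2M at 180, 182 and 182 CPM. TAP1 held 45, 3 and 1 UMIs there, and its ratio of concentrate to milk only was 0.193 (0.00478 to 1.13), a call of lower where 20.2% of genes were. Scaled to the median of ratios, 23.9% were higher and 25.5% lower in concentrate than in milk only. Depth moved with diet in these classes. The median was 4942 UMIs in milk-only and 2159 in concentrate T or NK-like cells, and 13653, 3605 and 3615 UMIs in macrophage or dendritic-like cells; its part in the result was not tested. The difference between classes in the effect of diet was not tested either.

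The other genes of the pathway were read from lists by role, as counts of those past 1.5-fold among the measured ones in KRT15-high cells. The 9 other core proteasome subunits had 0 past the limit in any pair of libraries, with median log2 ratios of 0.22 (hay to milk only), 0.06 (concentrate to milk only) and 0.02 (concentrate to hay). The same medians over all genes, and the shares of all genes past the limit in each direction, are given above. Nothing is read from a count of 0 where that share is small. PSME1, a subunit of the activator cap that is induced with the immune subunits, stood at 105, 64.1 and 61.3 CPM, lower in hay and in concentrate than in milk only. Its partner PSME2 was at 162, 117 and 123 CPM, within 1.5-fold, and POMP, the assembly factor of new proteasomes, was at 233, 243 and 283 CPM. For the cap and assembly genes, 1 of 5 was lower in hay and 2 of 5 in concentrate than in milk only, where 24.6% and 14.5% of all measured genes were. Concentrate and hay differed for 0 of 5, against the shares of all genes given above.

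Peptide transport, trimming and loading genes showed no shared low level in concentrate. TAPBP, which holds the empty class I molecule at the peptide pump, was at 49.4 CPM in milk only, 22.2 CPM in hay and 31.1 CPM in concentrate. ERAP2, which trims peptides, was at 14.9, 7.25 and 9.43 CPM, and so reached the minimum of 10 CPM in milk only alone. HSPA5, a general chaperone of the endoplasmic reticulum, was at 679, 309 and 205 CPM, and CALR, a chaperone of the loading complex, at 208, 292 and 203 CPM. Of 9 measured genes 4 were lower in hay and 3 in concentrate than in milk only (24.6% and 14.5% of all genes), and of 8 only HSPA5 was lower in concentrate than in hay (2.07% of all genes). The class I-like genes MR1, CD1D, FCGRT and HFE were under the minimum. TAP2 and the classical class I heavy chains were not analysed here.

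Of 7 measured class I regulators 4 were lower in hay and 3 in concentrate than in milk only, where 24.6% and 14.5% of all genes were. In concentrate 0 of 5 were lower than in hay, against the small share of all genes given above. Against hay, IRF1, SOCS3 (44.7 against 4.05 CPM) and NFKB1 (14.45 against 8.06 CPM) reached the minimum of 10 CPM in milk only alone. Against concentrate, IRF1 and SOCS3 (6.89 CPM) did. For these genes the minimum largely set the direction. IRF1, a transcription factor that acts on class I genes, was at 34.0, 1.0 and 3.45 CPM, and its milk-only UMIs were mostly in c6, at 70.3 CPM against 2.08 CPM in c4. In c6 and c4 PSMB8 was at 73.4 and 75.0 CPM, PSMB9 at 42.3 and 56.4 CPM, PSMB10 at 47.3 and 66.2 CPM and B2M at 20.1 and 29.7 CPM. The part of IRF1 in these levels was not tested. NLRC5, known as the class I transactivator, held 9, 4 and 1 UMIs. The interferon gamma receptor chain IFNGR1 was at 63.3, 12.5 and 6.62 CPM, and IFNGR2 at 150, 92.8 and 112 CPM. Of the interferon-induced genes, 7 of 7 were lower in hay and 7 of 8 in concentrate than in milk only, against 24.6% and 14.5% of all genes, among them SAMD9 (333, 54.2 and 54.8 CPM) and ISG15 (35.5, 1.94 and 3.14 CPM). Between concentrate and hay 0 of 3 were lower, and MX1 and IFIH1 were higher in concentrate, by 3.77-fold (2.97 to 4.83) and 1.67-fold (1.43 to 1.97). The shares of all genes lower and higher between these 2 libraries are given above, and nothing is read from these counts. Among the measured interferon-induced genes, those other than MX1 were high in milk only in these cells, while PSMB8, PSMB9 and B2M were low in concentrate. MX1 was at 8.085, 2.848 and 10.74 CPM in milk only, hay and concentrate. Few of the 34 listed genes were measured, and the minimum of 10 CPM bears on which ones. Against hay, ISG15 and IFIH1 (24.1 against 8.06 CPM) reached it in milk only alone. The counts of lower genes therefore cannot speak for the whole list. In KRTDAP-positive cells the interferon-induced genes had another order. There 3 of 10 were higher and 2 lower in hay than in milk only (19.1% and 17.7% of all genes), 7 of 9 were lower in concentrate than in milk only (18.1%) and 5 of 7 lower than in hay (15.6%), as were PSMB8, PSMB9 and B2M.

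**Figure D5:**
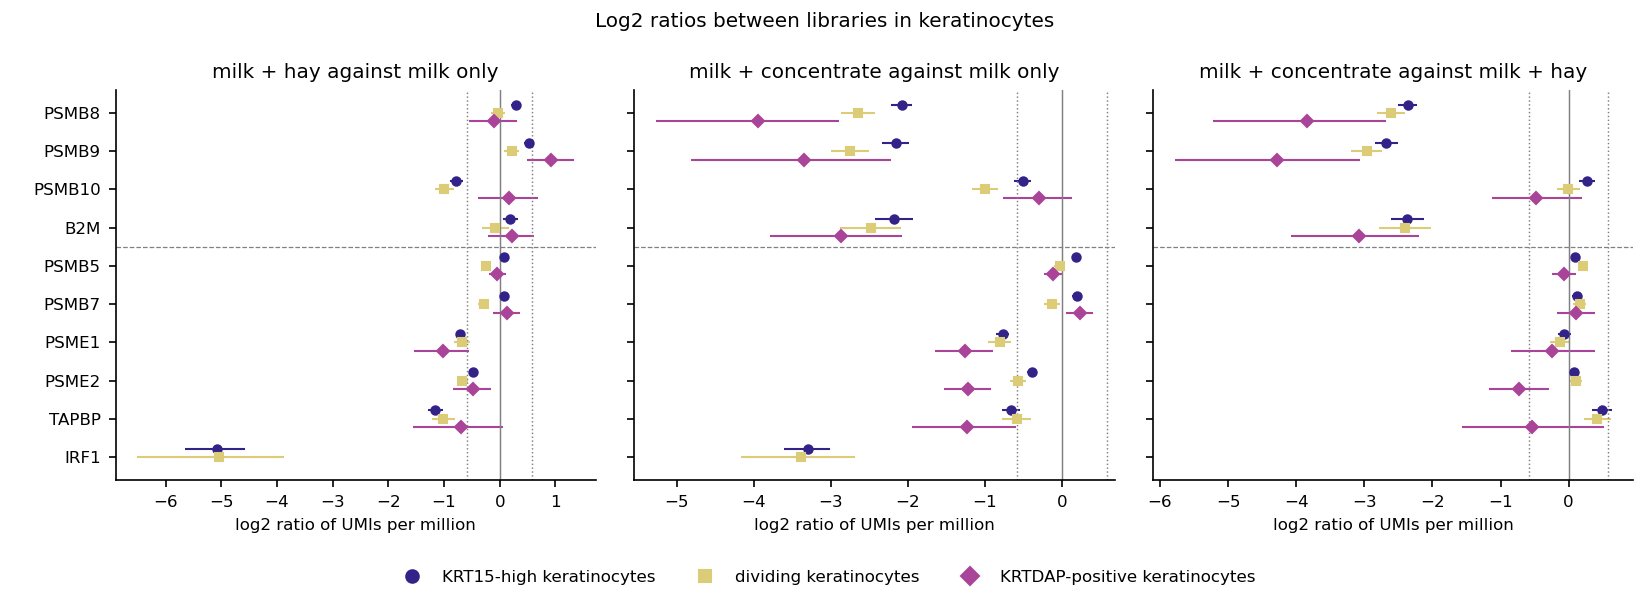
Log2 ratio of CPM between each pair of libraries in the 3 keratinocyte classes, for the measured members (above the dashed line) and for 6 genes of the pathway, with exact 95% intervals; dotted lines mark 1.5-fold. PSMB8, PSMB9 and B2M lie left of the limit in every class for concentrate against milk only and against hay, while PSMB5 and PSMB7 lie inside the limits in every panel.

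IFNG itself, the gene of interferon gamma, was counted in T or NK-like cells at 25.9 CPM in milk only (54 UMIs) and 154 CPM in concentrate (19 UMIs), a ratio of 5.97 (3.34 to 10.2). In the same cells 9 of 18 measured interferon-induced genes were higher in concentrate and 1 was lower, where 27.5% and 19.3% of all measured genes were. In macrophage or dendritic-like cells 10 of 23 were higher and 11 lower in concentrate than in milk only, against the shares of all genes given above. In KRT15-high keratinocytes IFNG held 0, 1 and 0 UMIs. CD74, the invariant chain of class II molecules, held 27, 1 and 1 UMIs there. IFI30, the 1 measured gene of the class II list, was at 122, 148 and 184 CPM. It was called higher in concentrate than in milk only, against the share of all genes given above.

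Likeness between genes was described by Pearson correlation of log2(CPM + 10) over 16 groups of class and library, against 5162 other genes. These groups share libraries and depth, and 5 of them are immune cells. PSMB8 was most like PSMB9 (r = 0.994), then PSMB10 (0.939), FKBP5 (0.931) and LAPTM5 (0.929). B2M was most like PSMB8 (0.919) and PSMB9 (0.915), then ARPC3 (0.904) and ARHGDIB (0.899). PSMB10 was most like LCP1 (0.966), PTPRC (0.963), CD2 (0.963) and HCLS1 (0.962), which are genes of blood cells. TAP1 was most like ITGA4 (0.950), AGAP2 (0.950), PRMT9 (0.943) and ICAM3 (0.937). Over the 9 keratinocyte groups alone PSMB8 and PSMB9 kept 0.969, whereas PSMB10 had 0.497 with PSMB8 and 0.183 with B2M.

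In the RefSeq gene table of assembly ARS-UI_Ramb_v3.0, whose identifiers matched 0 of those in the files and which was joined by symbol, TAP2, PSMB8, TAP1 and PSMB9 follow one another without a gene between them. PSMB10 lies between PSKH1 and LCAT. B2M overlaps 1 other gene there, and the sources used here do not say how reads of overlapping genes were counted, so its level is uncertain to that extent.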

How the data were processed

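The data were raw UMI counts per gene and cell barcode from 3 droplet libraries of rumen epithelium, 1 per diet, grouped by sample title. The authors deposited the counts as made by Cell Ranger, version 3.1 per the submitters' processing notes and 5.0.0 per the file headers. The genome build, the annotation and the selection of barcodes: not given in the sources used here. The lowest total of a barcode was 727, 2263 and 1047 UMIs in the milk-only, hay and concentrate libraries.

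Cells with at least 500 genes and under 20% mitochondrial UMIs (13 genes) were kept. Each cell was brought to 10000 UMIs and logged. With 2000 variable genes, 30 components and 15 neighbours, cells were clustered by Leiden at resolution 0.6 (scanpy 1.11.5, leidenalg 0.10.2) without integration. Scrublet marked 2, 0 and 0 cells, under the 0.5% required, so doublets were kept. A marker list named a cluster when at least 3 markers reached 20 CPM and 2-fold over the other cells; the list with most markers among the 10 leading genes took precedence. That precedence was added after seeing the data, since cluster 7 would otherwise have been called neutrophil-like from 3 S100 genes. Clusters at 4000 CPM of KRT15 or more were called KRT15-high. One cluster (c10) stayed unnamed.

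Counts were summed per class and library. Intervals (95%) are exact: Poisson for levels, conditional binomial for ratios, Clopper-Pearson for shares. A gene was called at 1.5-fold. A count of 0 was set to a floor of 3 counts. With 1 library per diet no test was run. Cells were thinned to 2000 UMIs for shares. Calling was checked on simulated counts. Computation used pandas 2.3.3, scipy 1.17.1 and numpy 2.4.6 under Python 3.11.15, with figures from matplotlib 3.10.9. Alternatives were other cell filters, clusterings, scalings and minima, per-cell states, and leaving out each cluster.

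The 5 genes and the gene lists were chosen with earlier results of these data known. Other genes were named by rule: up to 4 measured genes per pathway list with the largest log2 ratio in KRT15-high cells per comparison, the standard subunits, PSME1, PSME2, TAPBP, NLRC5, IRF1, IFNG and CD74, and the 4 genes most like each member. One further gene of this rule is not reported here. The lists of pathway genes matched the files by symbol (2 of 3 standard subunits, 10 of 11 other core subunits, 6 of 7 cap and assembly genes, 12 of 13 loading genes, 16 of 18 regulators, 14 of 15 interferon signalling genes and 34 of 52 interferon-induced genes). No sequence was printed and promoters were not searched.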

Additional observations from a re-analysis of the deposited data

Results flagged for a closer look

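By the direction of their ratios, PSMB8 and PSMB9 went opposite ways with concentrate in immune cells and in KRT15-high keratinocytes. The ratio of concentrate to milk only for PSMB8 was 1.40 in T or NK-like and 1.95 in macrophage or dendritic-like cells, against 0.237 in KRT15-high keratinocytes. For PSMB9 it was 1.96 in T or NK-like and 1.19 in macrophage or dendritic-like cells, against 0.225. PSMB8 in T or NK-like cells and PSMB9 in macrophage or dendritic-like cells were under the limit of 1.5-fold. With median-of-ratios scaling these log2 ratios were 0.35 and 0.07, so PSMB9 was then nearly level in macrophage or dendritic-like cells. With 1 library per diet the difference between the classes was not tested. In the immune classes the concentrate cells were shallower, and the part of depth was not tested.

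The unnamed cluster c10, led by AKR1D1 and with a median of 0.474% mitochondrial UMIs, is in none of the report's comparisons. In the hay library it held PSMB8 at 42.3 CPM, PSMB9 at 44.6 CPM, PSMB10 at 44.6 CPM and B2M at 30.9 CPM, and in the concentrate library PSMB10 at 52.3 CPM. All lay above the floor of 3 counts (3.43 and 10.5 CPM). PSMB8 and PSMB9 had 2 UMIs each in its 106 concentrate cells and B2M had 0, against 37, 39 and 27 UMIs in its 275 hay cells, so these genes were lower in concentrate here too.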

How the results depend on the processing

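No paired analysis was possible because each diet has 1 library, and for the same reason no replicate could be left out. In KRT15-high and dividing keratinocytes PSMB8, PSMB9 and B2M stayed at least 1.5-fold lower in concentrate than in milk only and in hay under all settings run (20 for KRT15-high, 14 or 15 for dividing cells), although at a minimum of 50 CPM 1 member in place of 3 was counted lower in concentrate than in milk only, as PSMB9 and B2M were then under the minimum. Of 787 alternative ratios of single members 106 moved out of the interval of the main ratio. Another 6 changed direction from a main ratio past 1.5-fold. Changes of direction of smaller ratios were not counted. For hay against milk only in KRT15-high cells the count of members lower went from 1 to 0 at resolution 0.3, with median-of-ratios scaling and without cluster 4. The count higher went from 0 to 1 in those 3 settings and with at least 1000 genes per cell, under 10% mitochondrial UMIs, resolution 1.2 or totals without the 50 most abundant genes, and to 2 without cluster 0. In KRTDAP-positive cells, hay against milk only gave 1 lower and 0 higher with at least 1000 or 200 genes per cell, at resolution 1.2 and when clustering without the members and pathway genes; the log2 ratio of PSMB9 was -0.12 with at least 1000 genes and -0.48 with at least 200. Concentrate against hay gave 1 lower with at least 1000 or 200 genes and when clustering without pathway genes. At resolution 0.3 concentrate gave 1 lower and 2 higher against milk only (log2 ratios 1.12 for PSMB8 and 1.46 for PSMB9), and 0 lower and 2 higher against hay (1.31 and 0.92). In macrophage or dendritic-like cells the count lower went from 1 to 0 at 50 CPM. Over all alternatives the count of members past 1.5-fold moved in 28 and stayed in 292. The share of all measured genes past 1.5-fold moved in 149 and stayed in 171. That share is not given here for each of these settings, so nothing is read from the changed counts. The cause was not tested, except that a minimum of 50 CPM measures fewer genes. Leaving out cluster 13, or cluster 7 against milk only, left under 20 cells and gave no value. Each cluster left out was chosen after seeing the data. Depth limits TAP1 in keratinocytes and the KRTDAP-positive cells of hay and concentrate.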
